A study of Rattus norvegicus with 6 samples.

Results

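Genes of the Wnt and LGR signalling system were examined in the rat vestibular epithelium, where they are of interest as markers and regulators of progenitor-like supporting cells. The set was defined by name: the R-spondin receptors Lgr4, Lgr5 and Lgr6, the membrane ubiquitin ligases Rnf43 and Znrf3, the feedback gene Axin2, the transcription factors Lef1 and Tcf7, and Ctnnb1, which encodes beta-catenin. Of these 9 genes, 8 were found among the 32883 genes of the count table and all 8 were tested, while Znrf3 was not analysed here. The experiment compared Long-Evans rats given streptomycin, an aminoglycoside antibiotic toxic to vestibular hair cells, with rats given vehicle. STREP rats received 500 mg/kg of the drug subcutaneously each day during 6 weeks from postnatal day 21, and Control rats received the PBS vehicle. Each group held 3 animals, of which 2 were males and 1 was a female (Control 3 and STREP 3). One library was made from each animal, by a SMART-seq2 protocol, from its pooled 2 utricles and 6 cristae, so that all cells of the dissected tissue contributed to every value.

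In canonical Wnt signalling, Wnt ligands bind Frizzled receptors and their LRP co-receptors, the destruction complex built on AXIN and APC stops degrading beta-catenin, and beta-catenin enters the nucleus to act with TCF and LEF factors. RNF43 and ZNRF3 remove Frizzled proteins from the cell surface, and R-spondins bound to LGR receptors remove these ligases in turn, which raises the sensitivity of a cell to Wnt. Lgr5 marks stem cells in the intestine and a population of supporting cells with progenitor capacity in the neonatal inner ear, and Axin2 and Lgr5 are themselves widely used as Wnt target genes.

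The promoters of the set were read first, because TCF and LEF factors recognise a short shared motif. RefSeq sequence on the GRCr8 build, from 250 bases before to 50 bases after the start used by the table, was available for 7 of the 9 genes, Lgr5 and Znrf3 being the exceptions. The letters CTTTGAT and CTTTGTT were searched on both strands, and neither overlaps the other. CTTTGAT was present in 3.63% and CTTTGTT in 5.98% of the 33469 rat promoters, and 9.39% held at least 1 of them. Among the 7 promoters of the set, 2 held a match, and both were CTTTGAT in the direction of the gene. They are printed 5′ to 3′ along the gene with the matched letters in capitals, since Tcf7 was the only gene of the set called higher and Axin2 is a standard readout of the pathway. The Tcf7 window is chr10:36954230-36954529 on the minus strand, with the match beginning 4 bases before the start. The Axin2 window is chr10:94398535-94398834 on the plus strand, with the match beginning 132 bases before the start.
Tcf7: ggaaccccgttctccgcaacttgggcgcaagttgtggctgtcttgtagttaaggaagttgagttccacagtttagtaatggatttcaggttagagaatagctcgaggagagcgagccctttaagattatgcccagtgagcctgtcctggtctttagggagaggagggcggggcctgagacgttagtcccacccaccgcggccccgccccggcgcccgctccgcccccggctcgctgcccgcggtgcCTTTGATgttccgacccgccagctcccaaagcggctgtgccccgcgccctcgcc
Axin2: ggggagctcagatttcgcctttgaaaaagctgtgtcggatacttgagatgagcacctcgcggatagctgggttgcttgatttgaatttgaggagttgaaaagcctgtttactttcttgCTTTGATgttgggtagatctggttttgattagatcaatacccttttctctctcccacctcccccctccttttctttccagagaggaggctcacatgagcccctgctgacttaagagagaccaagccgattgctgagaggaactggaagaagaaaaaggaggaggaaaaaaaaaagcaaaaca
A match of 7 letters describes the sequence and not a bound site, and other transcript starts were not searched. The counts themselves were made on an earlier rat build, so these windows give context only.

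Libraries held between 29333584 and 59906048 assigned counts, and the 3 STREP libraries (29333584 to 33744909) were all shallower than the 3 Control libraries (48568191 to 59906048). A floor of 3 counts corresponded to between 1.84 and 4.49 normalised counts, far below every value of the set. All 12 supporting cell markers and 9 of 10 listed hair cell markers were measured, so that the defining markers of the labelled tissue were present. Summed normalised counts of the supporting cell markers ranged from 574262 to 734888 in Control and from 653278 to 1128330 in STREP animals, the highest being STREP 3. Otog carried most of these sums, at 334983, 389779 and 410468 in Control and 452183, 425664 and 729507 in STREP animals. Of the 12 markers, 9 had an estimate above 0 (8281 of 16250 genes tested did), 0 were called and the median log2 change was 0.23. The hair cell sums overlapped (76820 to 82366 against 67893 to 81102), with Otof and Myo6 as their most abundant genes. Of the 9 hair cell markers, 2 had an estimate above 0 and 4 did not overlap, against 17.8% of all genes tested. Their median log2 change was −0.17, beside 0.0069 for all genes tested. Gfi1 was called higher (1.20), and Myo7a stood at −0.49 (DESeq2 adjusted p = 0.0162, under the fold threshold). Dark and transitional cell markers did not overlap, with 46201 to 52032 in Control and 32276 to 38996 in STREP, and 0 of their 6 tested genes had an estimate above 0. Among them Slc12a2 stood at −0.55 (DESeq2 adjusted p = 0.0035, under the fold threshold). Schwann cell sums ranged from 237350.0 to 331264 and from 131796 to 271420.0. Sox10 was called higher (0.95) and was the only 1 of the 6 Schwann cell markers with an estimate above 0. Melanocyte sums ranged from 25276 to 26079 and from 25708 to 38349. Pmel carried most of the melanocyte sum (log2 change 0.29), while Tyr (−1.06), Tyrp1 (−1.25) and Mlana (−0.96) had estimates below 0, and none of the 4 was called. The sums of stromal fibroblasts (15565 to 21226 against 14756 to 19485), macrophages (2859 to 4073 against 3668 to 4287), endothelium (6754 to 7224 against 6264 to 9006) and proliferation genes (2545 to 3039 against 2845 to 3102) overlapped, whereas those of neurons did not (4136 to 4814 against 3964 to 4105). The part of these sums in the results below was not tested.

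Of the 8 genes, 1 (Tcf7) was called higher in STREP rats and 0 were called lower by DESeq2, a call requiring an adjusted p below 0.05 and a change of more than 1.5-fold. Over the whole table the same rule called 1.87% of 16250 tested genes higher and 1.37% lower. At an unadjusted p below 0.05, 2 of the 8 genes were higher and 0 lower. Both, Tcf7 and Lgr5, were estimated at about a doubling, and the other 6 changed by less than the fold threshold. The share of all genes tested below that unadjusted p was not computed. Counts at an unadjusted p, here and in the lists below, therefore have no background beside them. Normalised counts of STREP and Control animals did not overlap for 2 of the 8 (Tcf7 and Ctnnb1), against 17.8% of all genes tested. The median log2 change of the 8 genes was 0.14, beside 0.0069 for all genes tested. With edgeR's quasi-likelihood test, 0 of the 8 were called in either direction, while 1.77% of 14928 genes were called. By the same tool, 2 of the 8 had an unadjusted p below 0.05. In this bulk tissue, fewer cells of a type and less RNA per cell cannot be told apart.

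**Figure D1:**
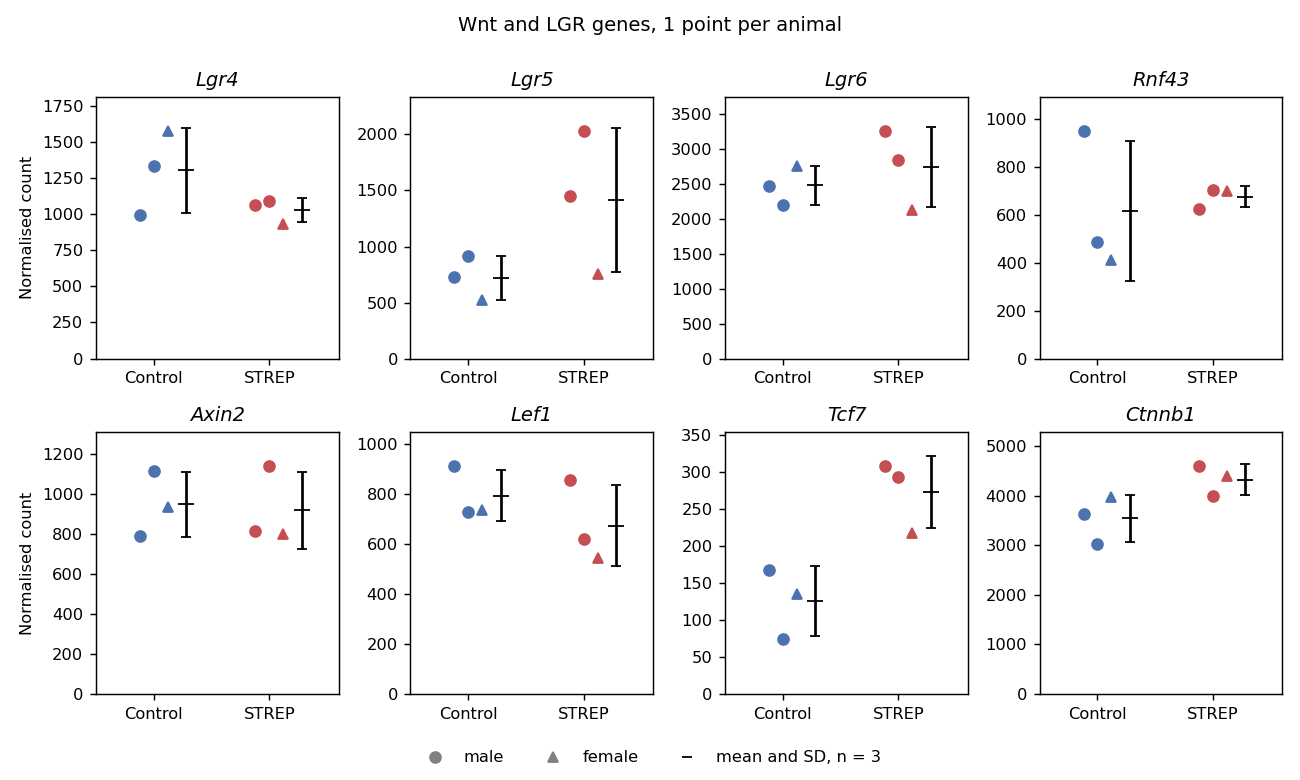
Normalised counts (vertical axes, starting at 0) of the 8 measured Wnt and LGR genes in each Control and STREP animal, circles for males and triangles for females, with the mean and SD of 3 animals beside them. Tcf7 (75 to 167 in Control, 217 to 308 in STREP) and Ctnnb1 separate the groups, Lgr5 overlaps through the STREP female at 754, and the other 5 genes overlap.

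Lgr5, the receptor that marks stem and progenitor cells, was higher in STREP animals on average but was not called. Its normalised counts were 725, 911 and 520.3 in Control 1, 2 and 3, and 1453, 2033 and 754 in STREP 1, 2 and 3. Both STREP males lay above every Control animal, whereas the STREP female lay between the Control males. The group means were 719 ± 196 and 1413 ± 640.5 (SD, n = 3), a log2 change of 0.98 ± 0.32 (SE), or 1.97-fold with a 95% interval of 1.28 to 3.03. The adjusted p of DESeq2 was 0.0561, just outside the threshold. Within sex, the males rose from 725 and 911 to 1453 and 2033 normalised counts, a ratio of means of 2.13, and the female of the STREP group stood at 1.45 times the Control female. When sex entered DESeq2 as a covariate, Lgr5 was called higher, with a log2 change of 0.91 ± 0.22 and an adjusted p of 0.00152. Under that model 1 of the 8 genes was called, beside 2.03% of 15571 genes called higher over the table. In males alone the log2 change was 1.09 with an adjusted p of 0.000881 by DESeq2. Leaving out STREP 3 gave 1.28 with an adjusted p of 0.000187, whereas leaving out STREP 2 gave 0.62 (0.426) and leaving out Control 3 gave 0.79 (0.363). Control 3 and STREP 3 are the females, so leaving out either sets males alone against a group with a female. Sex and treatment are then partly confounded. The edgeR value with all animals was not called (adjusted p = 0.223).

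Lgr4, the broadly expressed receptor of the family, did not pass the test. It stood at 998, 1339 and 1581 normalised counts in Control animals and at 1064, 1094 and 935 in STREP animals. The groups overlapped through Control 1, STREP 3 was the lowest of the 6 animals, and Control 2 and 3 lay above all STREP animals, with means of 1306 ± 293 and 1031 ± 84.4 (SD, n = 3). The log2 change was −0.34 ± 0.20 (SE), with a 95% interval from −0.74 to 0.06 and a DESeq2 adjusted p of 0.542.

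Lgr6, the remaining R-spondin receptor of the family, likewise did not pass. Its normalised counts were 2473, 2194 and 2759.8 in Control and 3258, 2845 and 2119.7 in STREP animals. Both STREP males lay above all Control animals and the STREP female lay below all of them. The means were 2476 ± 283 and 2741 ± 576 (SD, n = 3), and the log2 change was 0.15 ± 0.19 with a DESeq2 adjusted p of 0.886. The STREP males were 1.31 times the Control males, while the Control female was 1.302 times the STREP female. The interaction of sex and treatment for Lgr6 was −0.77 on the log2 scale (female minus male) with an unadjusted p of 0.0173 and an adjusted p of 0.724. No gene of the set reached an adjusted p of 0.05 in that interaction, against 34 of 13134 genes tested, and each group held 1 female.

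The balance between receptors was compared within each animal as a log2 ratio of counts, which does not depend on the scaling between libraries. The ratio of Lgr5 to Lgr4 was −0.46, −0.55 and −1.60 in Control 1, 2 and 3, and 0.45, 0.89 and −0.31 in STREP 1, 2 and 3. The groups did not overlap, which fixes the same order within each sex. The mean ratio moved from −0.87 ± 0.63 to 0.34 ± 0.61 (SD, n = 3), a difference of 1.22 or 2.32-fold. A two-sided exact permutation test gave p = 0.1, the smallest value that 3 against 3 animals allow, and 0.2 after adjustment over the 4 ratios computed. The ratio of Lgr6 to Lgr4 differed by 0.45 and that of Lgr6 to Lgr5 by −0.77, each with overlapping groups and an exact permutation p of 0.2. Ratios of counts compare animals for the same gene pair and do not rank the genes, because transcript lengths were not used here.

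**Figure D2:**
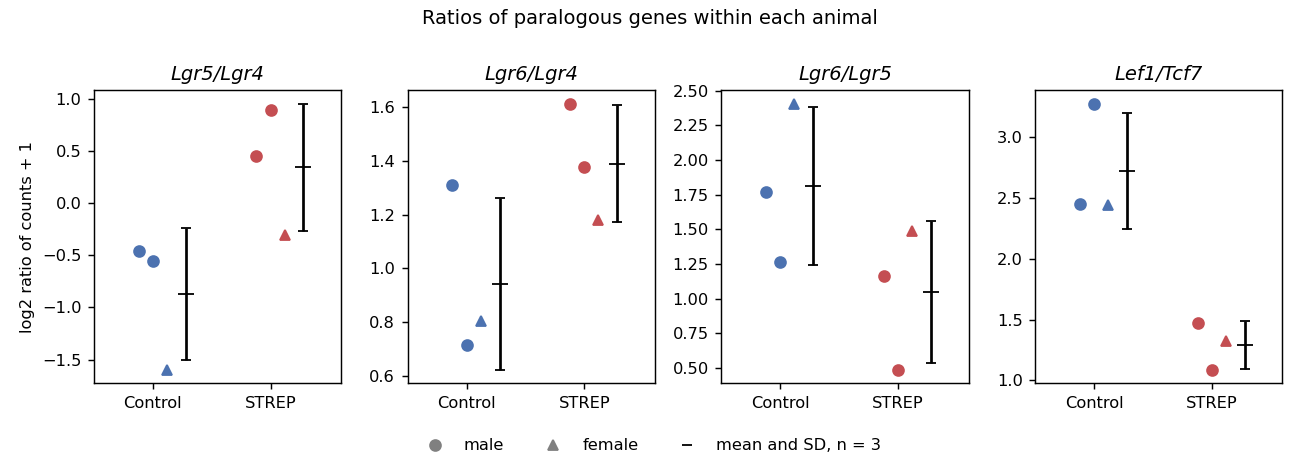
Log2 ratios of counts for 4 gene pairs (vertical axes) in each Control and STREP animal, circles for males and triangles for females, with the mean and SD of 3 animals. The Lgr5 to Lgr4 ratios of STREP animals (−0.31 to 0.89) lie above those of Control animals (−1.60 to −0.46), the Lef1 to Tcf7 ratios (1.08 to 1.47) lie below (2.44 to 3.27), and the other 2 pairs overlap.

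Rnf43, whose product clears Frizzled receptors from the membrane, showed no difference between groups beyond the spread of the Control animals. Its normalised counts were 949, 485 and 412 in Control and 623, 701 and 699 in STREP animals. Control 1 was the highest and the other Control animals the lowest of the 6. The means were 616 ± 291 and 674 ± 44.2 (SD, n = 3), with a log2 change of 0.13 ± 0.30 and a DESeq2 adjusted p of 0.959. The sign turned in males alone (−0.12), so that no direction can be given.

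Axin2, the negative feedback gene that is a common readout of beta-catenin activity, was nearly level. Its normalised counts were 792, 1114 and 937 in Control and 816, 1139 and 799 in STREP animals. The 2 ranges almost coincided. With means of 948 ± 161 and 918 ± 192 (SD, n = 3), the log2 change was −0.04 ± 0.22 and the DESeq2 adjusted p was 0.982, and its sign turned in males alone (0.04).

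Ctnnb1, encoding the transcriptional co-activator that the pathway stabilises, stood at 3634, 3019 and 3969.8 normalised counts in Control and at 4595, 3986 and 4395 in STREP animals. All STREP animals were above all Control animals, with STREP 2 only just above Control 3. The means were 3541 ± 482 and 4325 ± 310.2 (SD, n = 3). The log2 change was 0.29 ± 0.15 (SE), which did not pass (DESeq2 adjusted p = 0.439). Beta-catenin is regulated mainly as a protein, which was not measured here.

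Tcf7, which encodes the factor TCF1, was the only gene of the set called higher. It stood at 167, 74.8 and 135 normalised counts in Control 1, 2 and 3, from 272, 88 and 157 counts. In STREP 1, 2 and 3 it stood at 308, 293 and 217, from 231, 271 and 145 counts. The 3 STREP animals lay above the 3 Control animals, which fixes the same order within each sex. The means were 126 ± 46.8 and 272 ± 48.6 (SD, n = 3), a log2 change of 1.11 ± 0.36 (SE) or 2.17-fold with a 95% interval of 1.33 to 3.52. The adjusted p of DESeq2 was 0.0492, just inside the threshold. The ratio of means was 2.48 in males and 1.61 between the females. With sex as a covariate the log2 change was 1.102 and the adjusted p 0.0774, in males alone they were 1.31 and 0.149, and edgeR gave an adjusted p of 0.184, so that Tcf7 was not called in these fits. With 1 animal left out it was called only without Control 1, and its log2 change ranged from 0.85 to 1.37.

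Lef1, the other TCF/LEF factor of the set, did not pass the test. Its normalised counts were 913, 730.2 and 739 in Control and 856, 622 and 545 in STREP animals. The groups overlapped through STREP 1. The means were 794 ± 103 and 674 ± 162 (SD, n = 3), with a log2 change of −0.24 ± 0.22 and a DESeq2 adjusted p of 0.806. As a log2 ratio within each animal, Lef1 to Tcf7 was 2.45, 3.27 and 2.44 in Control and 1.47, 1.08 and 1.32 in STREP animals. The ratio was lower in every STREP animal than in every Control animal. Its mean moved from 2.72 ± 0.48 to 1.29 ± 0.20 (SD, n = 3), a difference of −1.43 or 2.69-fold lower in STREP, with an exact permutation p of 0.1 and 0.2 after adjustment over the 4 ratios.

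For single genes, the two-sided exact permutation test on log2 normalised counts gave p = 0.1 for Tcf7 and for Ctnnb1, the smallest value it allows, and 0.4 after adjustment over the 8 genes. The same exact test gave p = 0.2 for Lgr5, 0.3 for Lgr4 and Lef1, 0.6 for Lgr6 and Rnf43, and 1.0 for Axin2.

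The calls of Lgr5 and Tcf7 depended on the model. Over 10 other settings, the log2 change of Lgr5 ranged from 0.91 to 1.09 and that of Tcf7 from 1.102 to 1.31. Lgr5 was called in 4 of these settings and Tcf7 in 3. Both were called by DESeq2 when genes needed 10 counts in 3 samples (adjusted p = 0.0488 for Lgr5) and when libraries were thinned to 1 depth (0.0467).

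**Figure D3:**
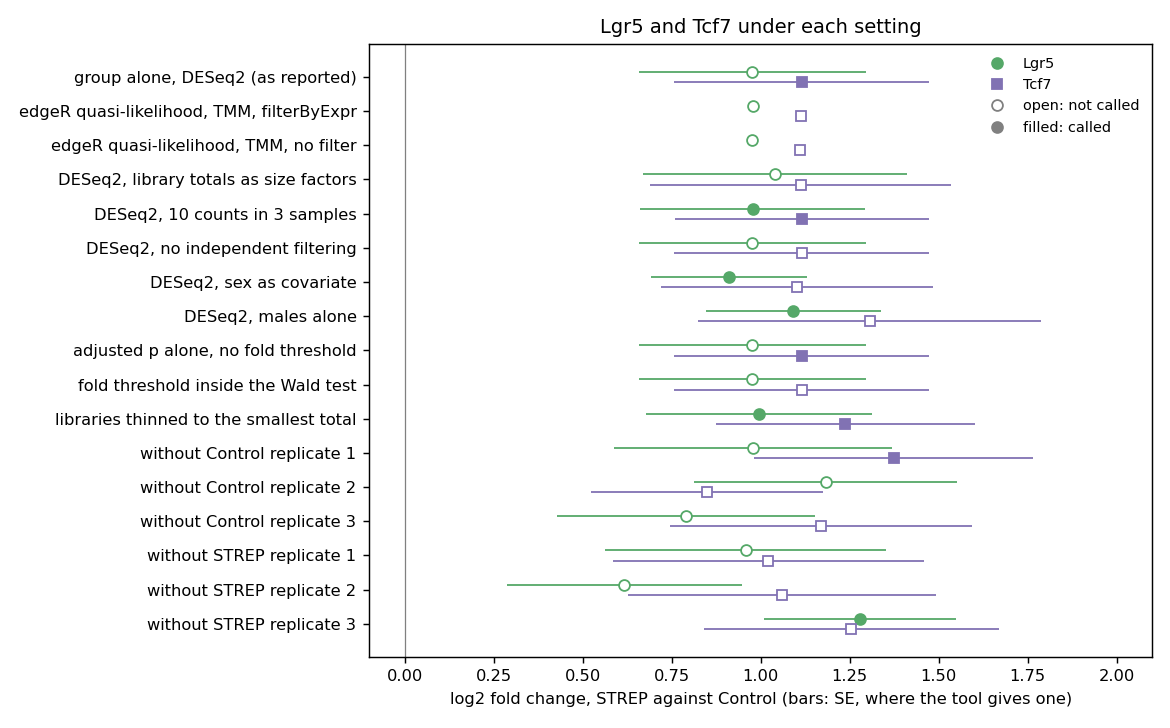
Log2 change (STREP minus Control) of Lgr5 and Tcf7 in the reported fit and under each other setting, with bars for the SE where the tool gives one, filled where the gene was called. The points stay above 0 in all settings, from 0.62 to 1.28 for Lgr5 and from 0.85 to 1.37 for Tcf7 when 1 animal is left out.

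The wider pathway was read from 9 further lists holding 101 genes, of which 99 were in the table, 95 had a count and 91 were tested. Of these 91, 3 were called higher (Fzd7, Fzd9 and Ctbp1) and 1 lower (Sostdc1), while 57 had an estimate above 0 and 20 did not overlap between groups. Over the whole table, 1.87% of 16250 tested genes were called higher and 1.37% lower. Beside these shares, 3 higher calls and 1 lower call among the 91 are too few to read as an excess. Of the same 16250 genes, 8281 had an estimate above 0 and 17.8% did not overlap. The non-overlapping share of the 91 was thus near the background. Their median log2 change was 0.11, beside 0.0069 for all genes tested. By edgeR 3 of the 91 were called, namely Fzd7, Fzd9 and Ctbp1, against 1.77% of 14928 genes over the table.

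The 3 R-spondins tested, the ligands of the LGR receptors, held no call, and edgeR called 0 as well, with 1 of them below an unadjusted p of 0.05 by either tool. Rspo3 stood at 3529, 3248 and 2951 normalised counts in Control and at 2579, 2677 and 1679.9 in STREP animals. Every STREP animal was below every Control animal. Its log2 change of −0.49 had a DESeq2 adjusted p of 0.185, which became 0.0175 with sex as a covariate, at a fold below the threshold. Rspo2 had a log2 change of 0.41 and did not pass.

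Among Wnt ligands, 15 of 19 were tested and 0 were called by DESeq2 or edgeR, with 2 higher and 2 lower at an unadjusted p below 0.05 by DESeq2 and 3 in all by edgeR. The median was 0.35 and 9 had an estimate above 0. Wnt7b, at a log2 change of 0.39, and Wnt5a, a ligand linked to planar polarity, at −0.07, were 2 abundant members. The ligand secretion genes Wls (0.14), which carries Wnt proteins to the cell surface, and Porcn (0.09), which attaches their lipid, were not called.

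The called receptors were both Frizzled genes. Of 15 receptor genes, 2 were called higher and 0 lower, against 1.87% and 1.37% of all genes tested. Of the 15, 10 had an estimate above 0, 5 did not overlap (17.8% of all genes tested did not), and the median was 0.25. Fzd9 stood at 1383, 1007.4 and 1663 normalised counts in Control and at 5505, 4797 and 4621 in STREP animals. All STREP animals were well above all Control animals. The means were 1351 ± 329 and 4974 ± 468 (SD, n = 3), with a log2 change of 1.88 ± 0.19 and an adjusted p of 3.18e-19 by DESeq2 and 0.000842 by edgeR. Fzd7, a Frizzled receptor with a role in stem cells of other epithelia, stood at 277, 229.5 and 453 in Control and at 1003.9, 972 and 953 in STREP animals. The groups were again far apart. Its means were 319.8 ± 118 and 976 ± 25.8 (SD, n = 3), with a log2 change of 1.61 ± 0.26 and an adjusted p of 1.2e-07 by DESeq2 and 0.00915 by edgeR. The co-receptor gene Lrp5 had a log2 change of 0.39 and did not pass.

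Of 14 secreted and surface inhibitors tested among 17, 0 were called higher and 1 lower (1.37% of all genes tested were called lower), and the median was −0.06. Sostdc1, a secreted modulator of Wnt and BMP signalling, stood at 867, 914 and 675 normalised counts in Control and at 501, 472 and 461 in STREP animals. No STREP animal reached the lowest Control animal. Its means were 819 ± 127 and 478 ± 20.6 (SD, n = 3), with a log2 change of −0.78 ± 0.20 and an adjusted p of 0.00406 by DESeq2. The edgeR adjusted p was 0.0542 with its filter, which is not a call, and 0.0459 without it, which is. By DESeq2 it was not called without Control 1 (0.0508), without Control 2 (0.0656), with library totals as size factors (0.119) or with the fold threshold inside the Wald test. Kremen1 (0.19) and Dkk3 (−0.23), a receptor for and a relative of the Dickkopf inhibitors, were not called.

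**Figure D4:**
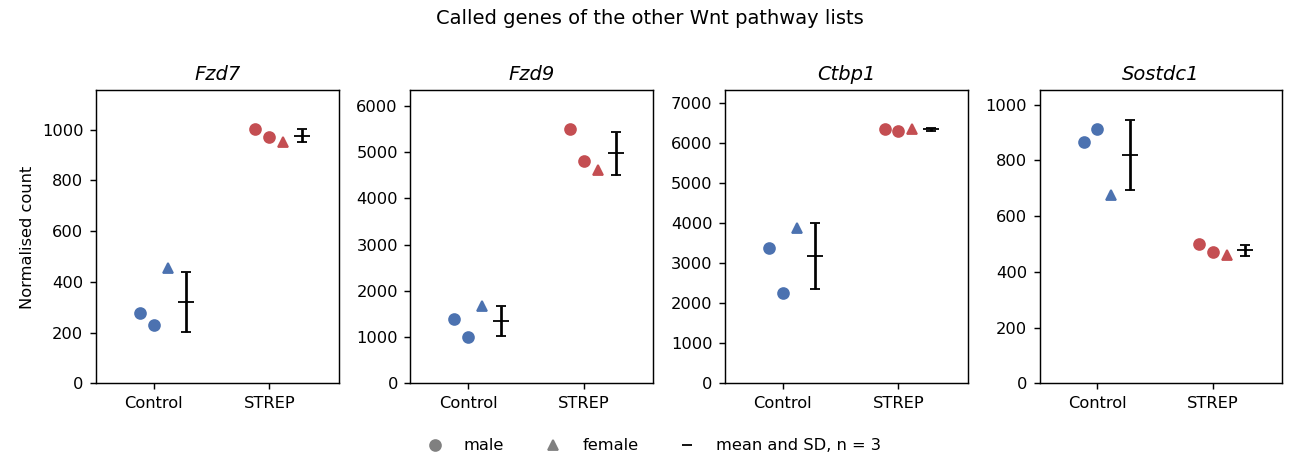
Normalised counts (vertical axes, starting at 0) of the 4 called genes of the wider Wnt pathway in each animal, circles for males and triangles for females, with the mean and SD of 3 animals. Fzd7, Fzd9 and Ctbp1 are higher and Sostdc1 is lower in all 3 STREP animals than in all 3 Control animals.

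Inside the cell, 0 of the 10 dishevelled and destruction complex genes tested were called by DESeq2 or edgeR, with 1 below an unadjusted p of 0.05 by either tool and a median of 0.13. Csnk1a1, the kinase that primes beta-catenin, had a log2 change of 0.29, and Apc, the scaffold of the complex, −0.16. Of the 13 nuclear partners of beta-catenin, 1 was called higher (1.87% of all genes tested were) and 0 lower, with a median of 0.16. This was Ctbp1, a transcriptional co-repressor used by many pathways. It stood at 3379.6, 2271 and 3891 normalised counts in Control and at 6364, 6312 and 6352 in STREP animals. The STREP animals were nearly equal and above every Control animal. Its means were 3180.3 ± 828 and 6342 ± 27.3 (SD, n = 3), with a log2 change of 1.00 ± 0.19 and an adjusted p of 2.71e-05 by DESeq2 and 0.0209 by edgeR, and it was not called with the fold threshold inside the Wald test. Pygo2, which links beta-catenin complexes to chromatin, was at −0.03.

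Target genes other than those of the set did not move together. Of 11 tested, 0 were called by DESeq2 or edgeR, 5 had an estimate above 0 and the median was −0.0034. At an unadjusted p below 0.05 by DESeq2, 1 was higher and 1 lower. Tnfrsf19 (−0.04), an intestinal stem cell marker, and Nkd1 (−0.17), a feedback inhibitor, were not called. Of the 8 planar cell polarity genes, which orient hair bundles, 0 were called by DESeq2 or edgeR and 1 was below an unadjusted p of 0.05 by either tool. Their median was 0.14, with Celsr1 at 0.26 and Vangl1 at 0.24.

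**Figure D5:**
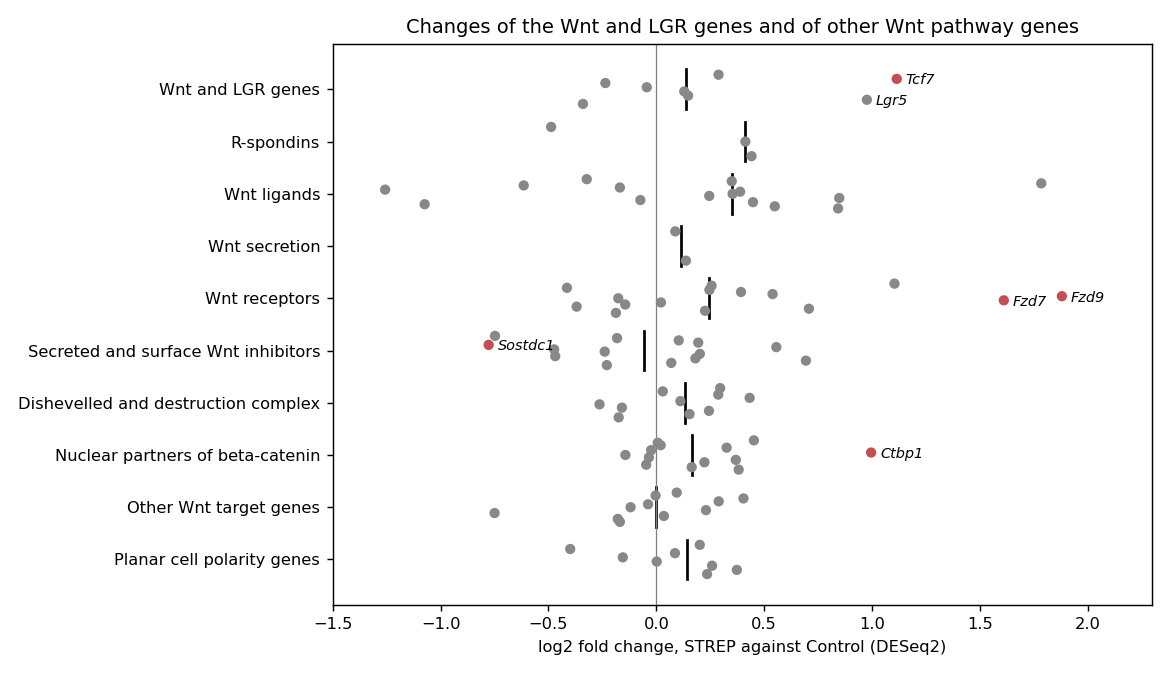
Log2 change (STREP minus Control, horizontal axis) of every tested gene of the 8-gene set and of the 9 further Wnt pathway lists, 1 row per list, with called genes in red and named, Lgr5 named in grey, and a black tick at the median of each list. Called genes stand at 1.11 (Tcf7), 1.61 (Fzd7), 1.88 (Fzd9), 1.00 (Ctbp1) and −0.78 (Sostdc1), and the remaining genes are spread on both sides of 0.

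The genes whose pattern over the 6 animals was most like that of Lgr5 were Scube2, Clcn5, Ikbke, Irak3 and Ap5m1. Likeness was the root mean square difference of log2 normalised counts after centring each gene, among 12130 genes with a mean of at least 100 normalised counts. These 5 genes differed from Lgr5 by 0.235, 0.241, 0.261, 0.261 and 0.262, beside a median of 0.695, and 9 genes were within 0.3. Since they were chosen for their likeness to Lgr5 over these animals, the shared pattern is a description, and none of the 5 was called.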

How the data were processed

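Whole-tissue RNA of 3 Control and 3 STREP rats, each from a separate animal, was sequenced by the authors. Expected counts per gene, deposited as 1 table, had been made with STAR 2.5.3a and RSEM 1.3.0 per the labels, on the Rnor6.0 genome and annotation named in the study's methods. All deposited values were whole numbers, so that no rounding was needed. The authors' protocol used no molecular identifiers, so amplified copies of 1 molecule cannot be separated.

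DESeq2 1.42.0 in R 4.3.3 was fitted to the whole table, following the tool and thresholds of the study's methods (adjusted p below 0.05 with Benjamini-Hochberg adjustment, change over 1.5-fold). Normalised counts were counts divided by DESeq2 size factors. edgeR 4.0.16 (quasi-likelihood test), a sex covariate, males alone, library totals, other filters, thinned libraries and the omission of each animal were alternatives. Ratios and single genes used exact permutation tests (SciPy 1.17.1) on log2 values with a pseudocount of 1. Ratios were computed over 4 gene pairs, a planned pair with Znrf3 being left out. On simulated counts with 200 genes changed 2-fold among 32883, for STREP against Control, DESeq2 recovered 134 and edgeR 114 in the right direction, and 23.4% and 8.06% of their calls were unchanged genes.

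The genes, lists and alternatives were chosen with earlier results of these data known. Named were the 9 genes of the set, in each pathway list the genes with an adjusted p below 0.05 and the 2 with the highest mean normalised count, and the 5 genes nearest to Lgr5. In the marker lists, genes with an adjusted p below 0.05 were named, and the other marker genes named follow no rule. Further pathway genes are marked as picked after their values were seen. Sex and group were taken from the labels, and replicate numbers only name animals.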

Additional observations from a re-analysis of the deposited data

How the results depend on the processing

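Lgr4, Lgr6, Lef1 and Ctnnb1 kept their direction and stayed uncalled in all 10 other settings and with each of the 6 animals left out, but their sizes moved: with an animal left out, Lgr4 ranged from −0.51 to −0.18 (−0.12 in males alone), Lgr6 from 0.0056, without STREP 1, to 0.30 (0.38 in males alone), Lef1 from −0.44 to −0.10 and Ctnnb1 from 0.18 to 0.38. The number of the 8 genes called higher was 0 with edgeR (with or without its filter), with library totals as size factors, without independent filtering and with the fold threshold inside the Wald test. It was 2 with a minimum of 10 counts in 3 samples and with thinned libraries, and 0 to 1 with an animal left out. The log2 change of Lgr5 was called at 0.98 with the minimum of 10 counts, 0.91 with the sex covariate, 1.09 in males alone and 0.99 in thinned libraries, and ranged from 0.62 to 1.28 with an animal left out, called only without STREP 3. That of Tcf7 lost its call at 1.11 with edgeR, library totals, no independent filtering and the fold threshold inside the test, at 1.102 with the sex covariate and at 1.31 in males alone, and ranged from 0.85 to 1.37 with an animal left out, called only without Control 1 (adjusted p = 0.0195). Rnf43 reversed to −0.12 in males alone (−0.091 to 0.58 with an animal left out), and Axin2 to 0.037 in males alone and 0.0017 in thinned libraries (−0.23 to 0.087). The whole table held 527 called genes, against 264 and 295 with edgeR with and without its filter, 309 with library totals and 82 with the fold threshold inside the test. The study itself reported more differentially expressed genes for this comparison, and the reason for the gap was not tested. The other pathway lists held 4 calls, against 7 in males alone, 2 with the fold threshold inside the test, and 3 to 7 with an animal left out, the 7 without Control 3. Wls (−0.019) and Pygo2 (0.027) reversed in males alone, and with an animal left out the ranges crossed 0 for Wls (−0.025 to 0.23), Pygo2 (−0.15 to 0.052), Wnt5a (−0.22 to 0.048), Porcn (−0.072 to 0.19) and Tnfrsf19 (−0.13 to 0.056). The cause was not tested. The 4 ratios kept their direction in all alternatives, the Lgr5 to Lgr4 difference ranging from 0.85 to 1.54 and the Lef1 to Tcf7 difference from −1.57 to −1.15 with an animal left out. No paired analysis was possible because the labels give no replicate numbers. With 3 animals and 1 female per group, exact tests cannot go below 0.1 and sexes cannot be compared with replication. Fits without Control 3 or without STREP 3 hold no female in that group, so sex and treatment are partly confounded in them.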

Other observations

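The genes of the wider pathway given here were not called in the reported fit over all animals and were picked out after their values were seen. Ror2, a receptor for Wnt5a, stood at 230.1, 113 and 159 normalised counts in Control and at 459, 389.8 and 232 in STREP animals, with a log2 change of 1.104 ± 0.36 (SE) and a DESeq2 adjusted p of 0.0511. Ccnd1, the cell cycle gene often used as a Wnt target, stood at 639, 734 and 501 in Control and at 466, 295 and 355 in STREP animals, with a log2 change of −0.75 ± 0.25 and an adjusted p of 0.0699. In both genes the groups did not overlap. Ror2 was called higher by DESeq2 over all animals when genes needed 10 counts in 3 samples (1.105, adjusted p = 0.0457). It was also called without Control 1 (DESeq2 adjusted p = 0.013) and without STREP 3 (0.0126). Ccnd1 was called lower by DESeq2 without Control 3 (adjusted p = 0.0446) and without STREP 1 (0.0192). Wnt3 stood at 443, 499.9 and 119.5 in Control and at 119.8, 185 and 200.5 in STREP animals, so that the Control males were high and the Control female was as low as the STREP animals. It was not called over all animals (log2 change −1.07, DESeq2 adjusted p = 0.238). In males alone it was called lower (−1.63, DESeq2 adjusted p = 0.00127), and its female minus male difference was 2.37 on the log2 scale. Sfrp5, of the inhibitor list, differed more between the sexes (2.74, female minus male). It stood at 1203, 1224 and 351 in Control and at 612, 1012 and 1572 in STREP animals. Over all animals its log2 change was 0.20 (DESeq2 adjusted p = 0.974). Both differences between the sexes rest on 1 female per group. Notum, a secreted Wnt deacylase, was nearly equal in the Control animals (211, 200.6 and 213) and higher in each STREP animal (333, 261 and 326), with a log2 change of 0.56 and an adjusted p of 0.272. Wnt2b was called higher in males alone (0.76, adjusted p = 0.0285), and over all animals its log2 change was 0.55 with an adjusted p of 0.115. Wnt3 and Wnt2b were also called by DESeq2 without Control 3 (adjusted p = 0.000392 and 0.0397), a fit in which the Control group held no female. Fzd3 was called higher by DESeq2 in males alone (1.04, adjusted p = 0.0407), and over all animals it stood at 0.71 with an adjusted p of 0.219.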
